A study of Mus musculus with 12 samples.

Results

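Lymphoid priming is the low expression of lymphoid genes in multipotent progenitors that have not yet committed to a lineage. The 10 genes described here were chosen by name: Il7r, Dntt, Rag1, Satb1, Notch1, Ikzf1, Ccr9, Tcf3, Ebf1 and Bcl11a. All 10 were found among the 35999 genes of the deposited table. RNA was sequenced from LSK cells (bone marrow cells without lineage markers that carry Sca-1 and KIT, among them stem cells and multipotent progenitors) of 6 WT mice and 6 Fancg KO mice, with 1 library per mouse. The KO mice were Fancg-/- animals, which lack a subunit of the Fanconi anemia core complex for repair of DNA crosslinks, and no treatment or time point was labelled. Strain and age are not given in the sources used here. Libraries are named by genotype and replicate number, from 2 to 7, as in their labels.

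In the bone marrow, lymphoid-primed multipotent progenitors express the cytokine receptor FLT3 and then acquire the interleukin-7 receptor as common lymphoid progenitors. Transcription factors such as Ikaros and the E proteins open lymphoid genes, EBF1 directs B cell fate and NOTCH1 directs T cell fate in the thymus. Terminal deoxynucleotidyl transferase and the RAG recombinase act later, when antigen receptor genes are assembled, although their transcripts can already be found in primed progenitors. In bulk LSK RNA, fewer primed cells and less RNA per primed cell cannot be told apart.

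The 250 bases before the RefSeq transcript start are shown for Dntt, Il7r and Rag1, the members whose windows held the most E boxes, the site of E proteins such as the product of Tcf3. Capitals mark E boxes (CANNTG, a palindromic pattern that reads alike on both strands) and, in Rag1 alone, a core motif of Ikaros (TGGGAA or its reverse complement TTCCCA). The sequences are from RefSeq on GRCm38.p6 and are written 5′ to 3′ on the strand of the gene. They lie at chr19:41029025-41029274 on the plus strand for Dntt, at chr15:9529877-9530126 on the minus strand for Il7r and at chr2:101649533-101649782 on the minus strand for Rag1.
Dntt: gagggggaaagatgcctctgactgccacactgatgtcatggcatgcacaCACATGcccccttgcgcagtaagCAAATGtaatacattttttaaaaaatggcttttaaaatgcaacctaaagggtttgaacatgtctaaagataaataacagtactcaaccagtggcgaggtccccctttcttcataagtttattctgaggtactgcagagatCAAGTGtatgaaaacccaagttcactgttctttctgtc
Il7r: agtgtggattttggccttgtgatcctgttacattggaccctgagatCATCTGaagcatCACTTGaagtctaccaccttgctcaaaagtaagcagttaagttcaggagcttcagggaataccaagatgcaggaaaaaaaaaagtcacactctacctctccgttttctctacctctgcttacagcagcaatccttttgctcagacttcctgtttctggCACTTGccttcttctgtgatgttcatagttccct
Rag1: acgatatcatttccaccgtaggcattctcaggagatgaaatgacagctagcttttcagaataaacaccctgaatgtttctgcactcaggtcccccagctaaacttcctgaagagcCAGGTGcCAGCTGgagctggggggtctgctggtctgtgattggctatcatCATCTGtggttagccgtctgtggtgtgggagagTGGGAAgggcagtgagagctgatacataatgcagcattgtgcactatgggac
Each of the 3 windows held 3 E boxes, and the Rag1 window held 1 Ikaros core that did not overlap them. Of 32851 RefSeq windows of the same length, 66.2% held at least 1 E box, 12.2% held at least 3 and 21.6% held an Ikaros core. In the GENCODE annotation the windows of Dntt and Rag1 touched no exon, and the window of Il7r overlapped an exon of a noncoding transcript of Il7r. The matches are letters in a window, and no binding was measured here.

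The deposited value, called signal, is in units of estimated reads after scaling of each library by 1 factor. A library held about 1235110 to 2471413 reads, and the libraries of replicates 6 and 7 of both genotypes held the fewest, at most 1484209 against at least 2021706 in replicates 2 to 5. The labels name no batch, so results are given over all libraries and within these depth groups. Lars2, the gene of mitochondrial leucyl-tRNA synthetase, took between 15.6% and 36.2% of the signal of a library. Kit (283 to 435) and Cd34 (528 to 728) were high in every library, and Ly6a, which encodes Sca-1, lay between 4.84 and 17.4. Of the B cell markers, Pax5 did not exceed 1.25 in any library, but Cd79b lay between 8.46 and 19.9. Of the T cell markers, Cd3e did not exceed 0.348, but Lat lay between 4.82 and 14.8 and Lck between 0.552 and 20.4. Fancg had a signal of 10.3 ± 6.96 (SD, n = 6) in WT and 8.53 ± 4.18 (SD, n = 6) in KO (two-sided exact permutation test, p = 0.636) and did not separate the labels, so WT and KO mean libraries labelled so. Transcripts of 4 Y-linked genes summed to a signal of 26.6 in WT replicate 3 and 49.7 in KO replicate 7, against 189 to 435 in the others.

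No difference between WT and KO LSK cells passed the test in any of the 10 genes over all 12 libraries. The WT and KO values overlapped in all 10. Nearly all genes did the same, since groups did not overlap in only 0.09% of all genes tested. Il7r, Dntt and Satb1 had the largest differences among the 7 genes with enough signal, with a mean log2 difference of -0.94, -0.50 and -0.39. Ikzf1, Tcf3, Ebf1 and Bcl11a, which encode transcription factors, had differences between -0.03 and 0.18. The comparison asks whether loss of Fancg goes with a change of lymphoid priming in the progenitor fraction. The test was limma on log2(signal + 1), fitted to the 8887 genes whose signal averaged 10 or more, and on this scale changes of weakly expressed genes come out too small. Rag1, Notch1 and Ccr9 were below this filter and were tested only by exact permutation over the 12 libraries, which can give no p below 0.00216. Of the 7 members tested, 0 had an unadjusted limma p under 0.05, against 3.67% of all genes tested, and 0 had an adjusted p under 0.05, against 0.0% of all genes tested. Adjusted p was 0.9996 for each of the 7 and lay between 0.889 and 1 over the alternatives tried, and 0 of 10 had an exact p under 0.05. The log2 difference was below 0 in 8 of 10 members and in 5 of the 7 tested, beside 49.3% of all genes tested. Ccr9, Tcf3 and Bcl11a, the nearest to 0 of these, came out above 0 when libraries were scaled to their total without Lars2, a scaling that moved the median of all genes tested by about as much, from 0.00 to 0.06. The median difference was -0.03 over the 7 tested members, -0.17 over all 10 and 0.00 over all genes tested.

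**Figure D1:**
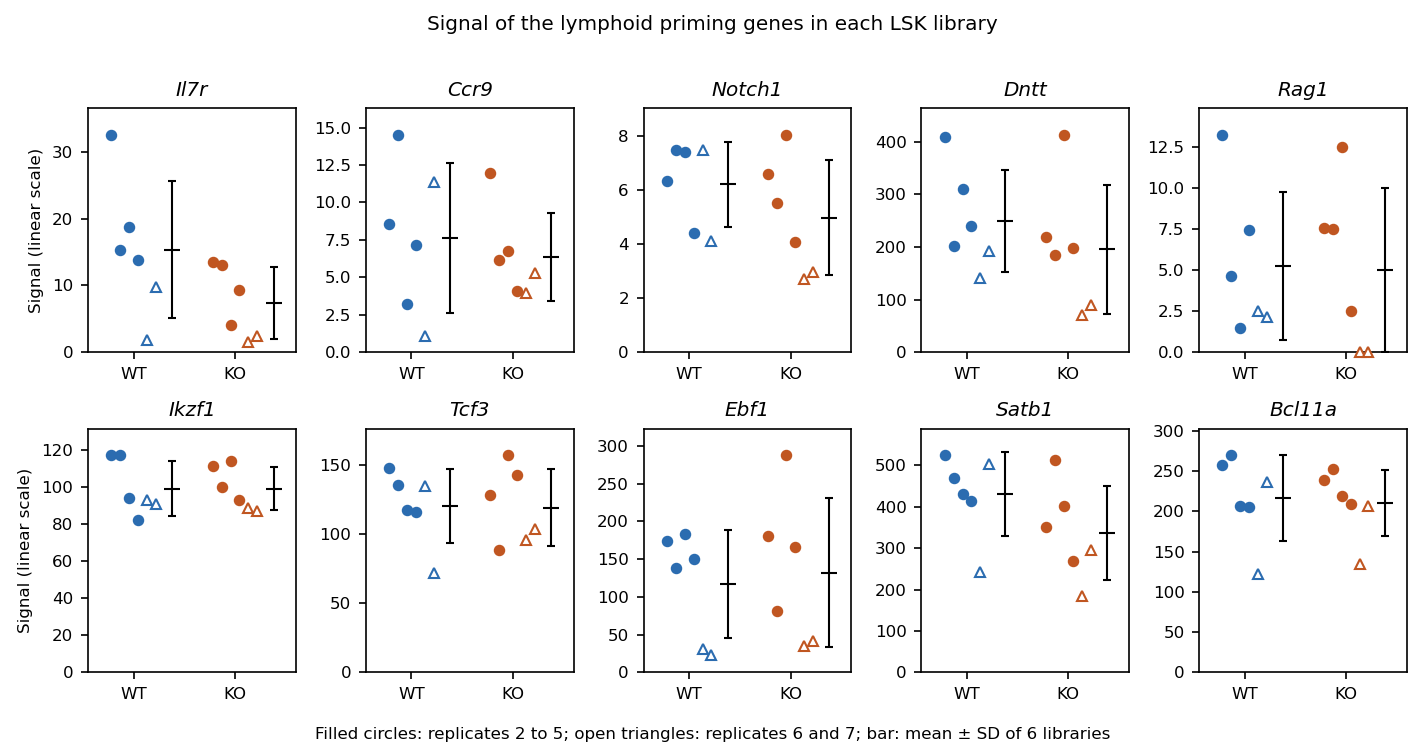
Signal (linear y axis, separate for each gene) of the 10 lymphoid priming genes in the 6 WT and 6 KO libraries, with filled circles for replicates 2 to 5, open triangles for replicates 6 and 7, and a bar for the mean ± SD. WT and KO overlap in every panel, and the triangles of Ebf1, from 22.6 to 41.0, lie below all its circles.

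Il7r encodes the alpha chain of the interleukin-7 receptor, the signal on which common lymphoid progenitors depend (ENSMUSG00000003882.5, chr15:9505788-9530176, minus strand, GRCm38). Its signal ran from 1.75 to 32.6 in WT with a median of 14.6, and from 1.58 to 13.6 in KO with a median of 6.72. The highest KO library stood below the WT median, and the lowest library of each genotype was replicate 6. The mean was 15.3 ± 10.3 (SD, n = 6) in WT and 7.33 ± 5.36 (SD, n = 6) in KO, with a log2 difference of -0.94 ± 0.58 (SE) and a 95% interval from -2.18 to 0.29. This did not pass the test (limma, p = 0.125, adjusted p = 0.9996, and exact permutation test, p = 0.180). These signals stood for about 1.40 to 27.1 reads per library, where counting error is large. Within replicates 2 to 5, Il7r was 20.1 in WT and 10.01 in KO, and the lowest WT library (13.9) lay above the highest KO library (13.6). The difference there was -0.97 (limma, p = 0.031, adjusted p = 0.9998, and exact permutation test, p = 0.0286, the smallest that 4 against 4 can give). Of the 7 tested members, 1 (Il7r) had genotypes that did not overlap there, beside 2.04% of all genes tested, and 1 (again Il7r) had an unadjusted p under 0.05, beside 3.45% of all genes tested. Within replicates 6 and 7 the difference was -0.88 (exact permutation test, p = 0.667), where 3 of the 4 libraries held fewer than 2 reads of Il7r. With the depth group as a term in the fit, the unadjusted p of Il7r was 0.029, and again 1 of 7 members had a p under 0.05, beside 4.24% of all genes tested. The depth groups were seen in the data before these values were computed. Without WT replicate 6 the difference was -1.39, with an unadjusted p under 0.05 (limma, adjusted p = 0.999), and without WT replicate 3 and KO replicate 7 together it was -0.68 (limma, adjusted p = 0.992).

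Ccr9 and Notch1 are receptors of the way to the thymus. Ccr9, the receptor for the chemokine CCL25 that draws progenitors into the thymus (ENSMUSG00000029530.16, chr9:123678439-123784330, plus strand), ran from 1.06 to 14.5 in WT with a median of 7.87 and from 3.93 to 11.9 in KO with a median of 5.70. The WT range enclosed the KO range. Its mean was 7.65 ± 5.01 (SD, n = 6) in WT and 6.36 ± 2.95 (SD, n = 6) in KO, a log2 difference of -0.03 (exact permutation test, p = 0.944). Exons of Ccr9 overlap exons of Slc6a20a on the other strand, and whether reads were counted by strand is not given in the sources used here. Exons of other annotated genes also overlap those of Satb1, Notch1 and Bcl11a on the other strand. On the same strand they overlap those of Ccr9, Rag1 and Satb1. Notch1, whose receptor directs T cell commitment (ENSMUSG00000026923.15, chr2:26457903-26516663, minus strand), ran from 4.12 to 7.47 in WT with a median of 6.87 and from 2.701 to 8.04 in KO with a median of 4.80. KO replicate 4 was the highest of all libraries for Notch1, and KO replicates 6 and 7 were the lowest. The mean was 6.20 ± 1.57 (SD, n = 6) in WT and 4.98 ± 2.11 (SD, n = 6) in KO, a log2 difference of -0.31 (exact permutation test, p = 0.242). Within replicates 2 to 5 this was -0.08 (exact permutation test, p = 0.771) and within replicates 6 and 7 it was -0.78 (exact permutation test, p = 0.333, the smallest that 2 against 2 can give).

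Dntt encodes terminal deoxynucleotidyl transferase, which adds bases without a template at the joints of antigen receptor genes (ENSMUSG00000025014.13, chr19:41029275-41059525, plus strand). Its signal ran from 142 to 409 in WT with a median of 221, and from 69.7 to 414 in KO with a median of 191. KO held both ends of the range, since KO replicate 4 was the highest library and KO replicates 6 and 7 (69.7 and 89.9) were the lowest. The mean was 249.1 ± 96.4 (SD, n = 6) in WT and 196 ± 123 (SD, n = 6) in KO, a log2 difference of -0.50 ± 0.37 (SE) with a 95% interval from -1.27 to 0.28 (limma, p = 0.192, adjusted p = 0.9996, and exact permutation test, p = 0.281). The difference depended on single libraries and on the depth group. Within replicates 2 to 5 it was -0.22 (exact permutation test, p = 0.543). Within replicates 6 and 7 it was -1.05 (limma, p = 0.0063, adjusted p = 0.9996, and exact permutation test, p = 0.333, the smallest possible). Of the 7 tested members, 1 (Dntt) had an unadjusted p under 0.05 there, beside 3.51% of all genes tested. Without KO replicate 4 the difference was -0.76, with an unadjusted p under 0.05 (limma, adjusted p = 0.999), but without KO replicate 6 it was -0.25 (limma, adjusted p = 0.997) and without KO replicate 7 it was -0.32 (limma, adjusted p = 0.9999). In KO replicate 4 the 6 markers of plasmacytoid dendritic cells summed to 44.8, against 8.45 to 21.8 in the other libraries, most of it Bst2 at 35.5, and their part in the value of Dntt was not tested.

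Rag1 encodes the catalytic subunit of the V(D)J recombinase (ENSMUSG00000061311.6, chr2:101638282-101649501, minus strand). Its signal ran from 1.47 to 13.2 in WT with a median of 3.56 and from 0 to 12.5 in KO with a median of 5.01, which stood for 0 to 16 reads per library. KO replicates 6 and 7 were at 0, where a count of 0 allows a signal of up to 3.40 and 4.82 (3 reads, counting error only), and the values of 2.51 and 2.16 in WT replicates 6 and 7 lie within this limit. A difference was not detectable at this depth in those libraries. Over all 12 libraries the mean was 5.24 ± 4.48 (SD, n = 6) in WT and 5.01 ± 5.01 (SD, n = 6) in KO, a log2 difference of -0.40 (exact permutation test, p = 0.606), and within replicates 2 to 5 it was 0.26 (exact permutation test, p = 0.743). Rag2, the partner subunit, was 10.9 ± 6.35 (SD, n = 6) in WT and 11.3 ± 11.8 (SD, n = 6) in KO. Rag2 was highest in KO replicate 4 (33.7) and WT replicate 2 (23.3), which also held the highest values of Rag1 (12.5 and 13.2) and of Dntt (414 and 409).

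Ikzf1, Tcf3 and Ebf1 encode transcription factors of the lymphoid programme, and none stood apart between genotypes. Ikaros, the product of Ikzf1 (ENSMUSG00000018654.17, chr11:11685003-11772926, plus strand), is needed for lymphoid development from its first steps. Its signal ran from 81.9 to 117 in WT with a median of 93.4 and from 86.9 to 114 in KO with a median of 96.7. The 2 ranges were nearly the same. The mean was 99.0 ± 14.8 (SD, n = 6) in WT and 99.1 ± 11.5 (SD, n = 6) in KO, a log2 difference of 0.01 ± 0.14 (SE) with a 95% interval from -0.29 to 0.30 (limma, p = 0.966, adjusted p = 0.9996, and exact permutation test, p = 0.957). Tcf3 encodes the E proteins E12 and E47 (ENSMUSG00000020167.14, chr10:80409514-80433647, minus strand), and its signal ran from 71.9 to 148 in WT with a median of 126 and from 88.6 to 158 in KO with a median of 116. The mean was 121 ± 26.8 (SD, n = 6) in WT and 119 ± 27.7 (SD, n = 6) in KO, a log2 difference of -0.01 ± 0.19 (SE) (limma, p = 0.947, adjusted p = 0.9996, and exact permutation test, p = 0.957).

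Ebf1 encodes early B cell factor 1, which with E2A starts the B cell programme (ENSMUSG00000057098.14, chr11:44617317-45008091, plus strand). Its signal ran from 22.6 to 183 in WT with a median of 145, and from 34.7 to 288 in KO with a median of 124. In both genotypes the low values were those of replicates 6 and 7. The mean was 117 ± 71.4 (SD, n = 6) in WT and 132 ± 98.2 (SD, n = 6) in KO, a log2 difference of 0.18 ± 0.60 (SE) with a 95% interval from -1.10 to 1.46 (limma, p = 0.768, adjusted p = 0.9996, and exact permutation test, p = 0.790). Within replicates 2 to 5 the difference was 0.03 (exact permutation test, p = 0.971), and within replicates 6 and 7 it was 0.49 (exact permutation test, p = 0.333). It was -0.20 without WT replicate 7 and 0.48 without KO replicate 6, the ends of the range with 1 library left out. An interval this wide spans large differences in either direction.

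Satb1 and Bcl11a encode regulators that are expressed in stem cells as well as lymphoid cells. SATB1 organizes chromatin loops and is needed for T cell development (ENSMUSG00000023927.15, chr17:51736187-51833290, minus strand). Satb1 ran from 242 to 525 in WT with a median of 450 and from 185 to 512 in KO with a median of 322. In 5 of 6 WT libraries Satb1 lay above all KO libraries but 1, that of replicate 3. The mean was 431 ± 102 (SD, n = 6) in WT and 336 ± 114 (SD, n = 6) in KO, a log2 difference of -0.39 ± 0.24 (SE) with a 95% interval from -0.89 to 0.11 (limma, p = 0.120, adjusted p = 0.9996, and exact permutation test, p = 0.173). It was -0.29 within replicates 2 to 5 (exact permutation test, p = 0.229) and -0.58 within replicates 6 and 7 (exact permutation test, p = 0.667). Without WT replicate 6 it was -0.55 and without KO replicate 3 it was -0.52, both with an unadjusted p under 0.05 (limma, adjusted p = 0.999 and 0.998). Without KO replicate 6 it was -0.23 (limma, adjusted p = 0.997). Bcl11a, a zinc finger repressor required for B cells and for lymphoid progenitors (ENSMUSG00000000861.15, chr11:24078056-24174123, plus strand), ran from 122 to 270 in WT with a median of 221 and from 134 to 252 in KO with a median of 214. Replicate 6 of each genotype was its lowest library. The mean was 216 ± 53.3 (SD, n = 6) in WT and 210 ± 41.1 (SD, n = 6) in KO, a log2 difference of -0.03 ± 0.20 (SE) (limma, p = 0.898, adjusted p = 0.9996, and exact permutation test, p = 0.877).

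**Figure D2:**
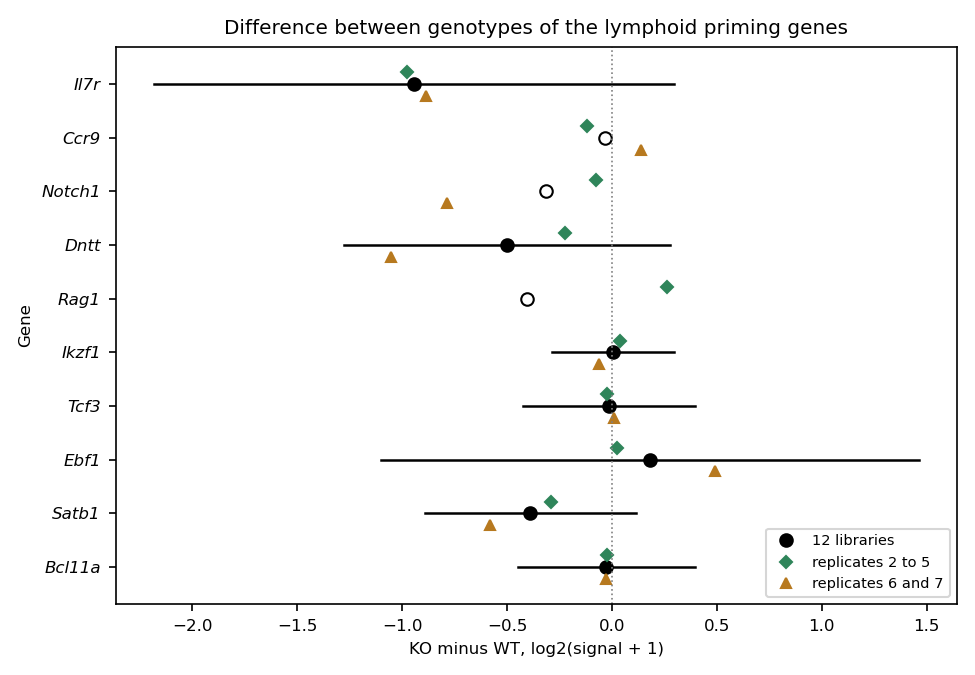
KO minus WT difference of mean log2(signal + 1) (x axis) for each gene (y axis), with circles for all 12 libraries, diamonds for replicates 2 to 5 and triangles for replicates 6 and 7. Lines are 95% limma intervals of the 7 genes tested, all of which include 0; open circles are the 3 genes below the filter, and no triangle is drawn for Rag1, which was at 0 in both KO libraries.

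The genes differed in their spread between libraries of the same genotype. The SD of log2(signal + 1) within genotype, pooled over WT and KO, was 1.28 for Ebf1, 1.15 for Il7r and 0.76 for Dntt. These were higher than in 98.3%, 97.8% and 91.4% of all genes tested. Satb1 (0.46), Bcl11a (0.37) and Tcf3 (0.35) lay near the median of all genes tested, 0.41. Ikzf1 was among the steadiest genes with an SD of 0.19, above that of only 3.93% of genes. These ranks were not taken among genes of similar signal. Il7r stood for about 1.40 to 27.1 reads per library, so its SD includes counting error. The SD of Ebf1 includes the difference between replicates 6 and 7 and replicates 2 to 5 (log2 difference -2.32). The extremes fell in few libraries: WT replicate 2 held the highest value of Il7r, Rag1, Satb1 and Ikzf1, and KO replicate 4 that of Dntt, Ebf1, Tcf3 and Notch1. KO replicate 6 held the lowest value of 5 members, Il7r, Dntt, Rag1, Satb1 and Notch1, with Rag1 also at 0 in KO replicate 7.

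In the signal as deposited, all 10 members had a lower mean log2 value in the libraries of replicates 6 and 7 than in those of replicates 2 to 5. Among genes tested this held for 7 of 7 members, beside 43.7% of all genes tested, and the median difference was -0.53 for the members and 0.05 for all genes tested. The log2 difference was -2.32 for Ebf1, -1.84 for Il7r and -1.17 for Dntt, values as low as in 0.135%, 0.416% and 1.24% of all genes tested. For Ebf1, replicates 2 to 5 of both genotypes ran from 82.0 to 288 with a median of 170, and replicates 6 and 7 from 22.6 to 41.0 with a median of 32.9. Of the 7 tested members, 1 (Ebf1) had depth groups that did not overlap, beside 2.57% of all genes tested. The difference was smaller for Satb1 (-0.53), Bcl11a (-0.45), Tcf3 (-0.36) and Ikzf1 (-0.19). Replicate number and read depth cannot be told apart here. The median share of Lars2 in the signal was also higher in replicates 6 and 7 (32.6%) than in replicates 2 to 5 (21.8%). The differences between depth groups were not computed with scaling without Lars2, so the sign of the smaller ones may depend on the scaling. Summed markers of granulocytes and monocytes (10 genes, mainly Mpo) were highest in replicate 6 of both genotypes, at 2141 in WT and 2288 in KO against 387 to 1066 elsewhere, and replicate 7 (661 and 985) lay inside that range. The 11 erythroid and megakaryocyte markers summed to 374 in KO replicate 7 against 52.1 to 171 elsewhere. The part of either in the low values of the members was not tested.

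**Figure D3:**
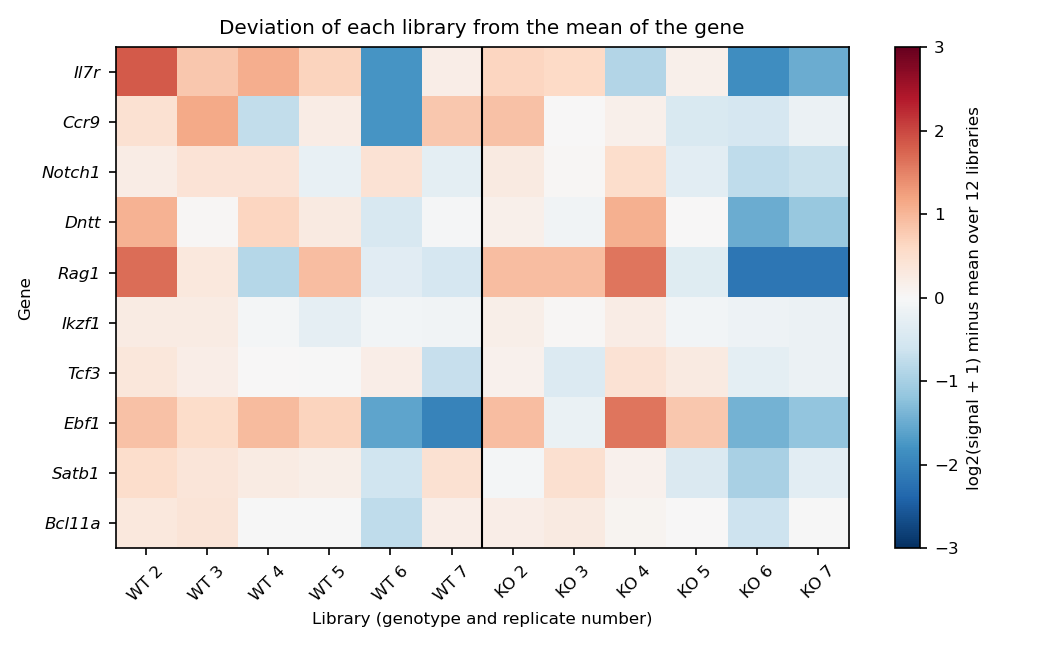
Deviation of log2(signal + 1) in each library (x axis) from the mean of the gene over 12 libraries (colour, red above and blue below) for the 10 genes (y axis). The columns of replicates 6 and 7 are mostly blue in both genotypes, and the row of Ikzf1 is pale throughout, with an SD within genotype of 0.19.

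Members were compared with each other across libraries after centring within genotype. Over all 12 libraries, 8 of 21 pairs of the 7 tested members had an adjusted p under 0.05 by Pearson r, and 2 of these, Satb1 with Bcl11a and Dntt with Ebf1, also by Spearman rho. Satb1 and Bcl11a had an r of 0.91 (permutation test, p = 0.00023, adjusted p = 0.00252) and a rho of 0.79 (permutation test, p = 0.00342, adjusted p = 0.0359), and r was 0.67 without the 2 libraries farthest from the median of Satb1, WT replicate 6 and KO replicate 6. In the deposited signal all members were lower in replicates 6 and 7, and Ebf1 fell there into a separate cluster. No pooled r is printed for Ebf1 for this reason, although its pairs are in the counts above and carry this limit. The relations were therefore also computed across the 8 libraries of replicates 2 to 5. There, 0 of 21 pairs had an adjusted p under 0.05. Satb1 and Bcl11a had an r of 0.63 (exact permutation test, p = 0.0874, adjusted p = 0.459) and a rho of 0.64 (exact permutation test, p = 0.0962, adjusted p = 0.505), with an r of 0.59 without KO replicates 3 and 5. Dntt and Ebf1 had a Pearson r of 0.75 (exact permutation test, p = 0.0188, adjusted p = 0.198) and a Spearman rho of 0.88 (exact permutation test, p = 0.00724, adjusted p = 0.113), and r was 0.62 without the 2 libraries farthest from the median of Dntt, KO replicate 4 and WT replicate 2. Ikzf1 and Bcl11a had an r of 0.77 (exact permutation test, p = 0.0333, adjusted p = 0.233) and a rho of 0.86 (exact permutation test, p = 0.0107, adjusted p = 0.113), with an r of 0.64 without WT replicates 5 and 2. Tcf3 and Ebf1 had an r of 0.84 (exact permutation test, p = 0.0147, adjusted p = 0.198) but a rho of 0.55 (exact permutation test, p = 0.171, adjusted p = 0.590), and the relation rested on KO replicates 3 and 4, since r was -0.01 without them. Il7r and Dntt, which serve the same progenitors, had an r of -0.21 (exact permutation test, p = 0.605, adjusted p = 0.747) and a rho of -0.02 (exact permutation test, p = 0.977, adjusted p = 0.977) in these 8 libraries. Over all 12 libraries their r was 0.66 (permutation test, p = 0.0181, adjusted p = 0.0475) and their rho 0.69 (permutation test, p = 0.0157, adjusted p = 0.0611). That r was 0.43 without WT replicate 6 and KO replicate 6.

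**Figure D4:**
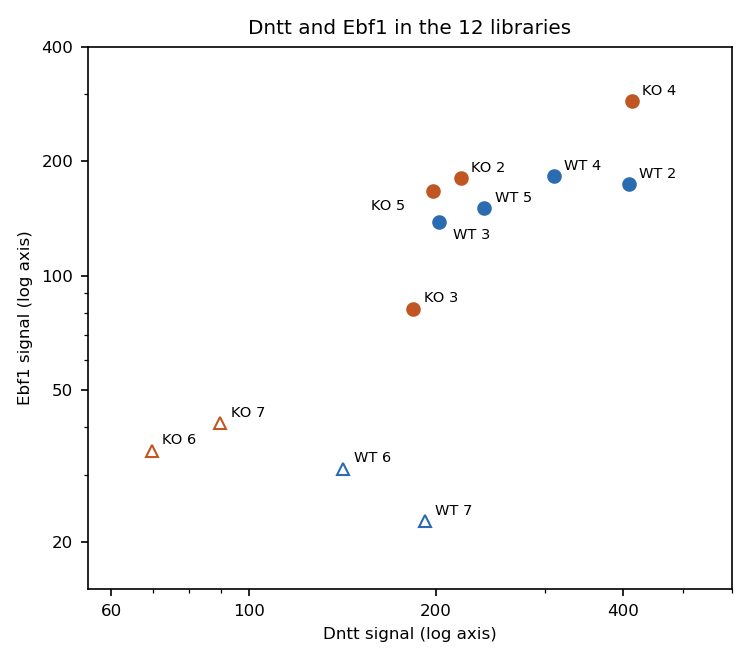
Signal of Dntt (x axis, log scale) against Ebf1 (y axis, log scale) in the 12 libraries, blue for WT and orange for KO, circles for replicates 2 to 5 and open triangles for replicates 6 and 7. The triangles lie at an Ebf1 signal of 22.6 to 41.0, apart from the circles at 82.0 to 288.

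Levels were compared between genes as mean signal per kilobase of the longest annotated transcript. In falling order they were Dntt (104 ± 51.1, SD over 12 libraries), Satb1 (61.4 ± 18.3), Tcf3 (40.7 ± 8.82), Bcl11a (35.6 ± 7.60), Ebf1 (20.8 ± 13.8), Ikzf1 (19.2 ± 2.45), Il7r (3.20 ± 2.503), Ccr9 (1.35 ± 0.766), Rag1 (0.776 ± 0.686) and Notch1 (0.589 ± 0.199). The mean ± SD did not overlap in 1 of the 9 neighbouring pairs, Ikzf1 and Il7r, where Ikzf1 was higher in 12 of 12 libraries. The mean ± SD of the other neighbours overlapped. Compared within each library, Dntt exceeded Satb1 and Bcl11a exceeded Ebf1 in 11 of 12, Tcf3 exceeded Bcl11a in 10, and Satb1 exceeded Tcf3, Il7r exceeded Ccr9 and Ccr9 exceeded Rag1 in 9. The order was near even for Ebf1 over Ikzf1 (7 of 12) and Rag1 over Notch1 (5 of 12). With the median transcript length in place of the longest, Notch1 was at 13.8, Ikzf1 at 80.8 and Bcl11a at 79.1 per kilobase, so these places in the order depend on which transcripts were counted.

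For each tested member the gene with the most similar profile over the 12 libraries was named, by the root mean square distance between standardized log2(signal + 1) values. It was Lgmn for Ebf1 (0.27), Zc3h7b for Dntt (0.29), Hlf for Bcl11a (0.29), Flt3 for Satb1 (0.36), Gm4759 for Il7r (0.43), Phkg1 for Ikzf1 (0.45) and B4galnt1 for Tcf3 (0.48). Hlf encodes a transcription factor of hematopoietic stem cells, and Flt3 the cytokine receptor that marks lymphoid-primed progenitors. These distances include the depth groups, and no test was made of them.

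The partners of the 10 genes were followed in 8 lists, of receptor signalling, V(D)J joining, the Notch pathway, E proteins and their inhibitors, Ikaros complexes, other lymphoid transcription factors, other genes of primed progenitors, and paralogs. They held 90 genes, of which 63 were tested, with 37 lower and 26 higher in KO. Of these, 4 had an unadjusted p under 0.05, or 6.35%, beside 3.67% of all genes tested, and 0 had an adjusted p under 0.05, beside 0.0% of all genes tested. The median log2 difference was -0.05, against 0.00 over all genes tested.

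Among 11 tested genes of interleukin-7 and FLT3 receptor signalling, 4 were higher and 7 lower, and 2 had an unadjusted p under 0.05. Flt3 was 489 ± 95.5 (SD, n = 6) in WT and 358 ± 127 (SD, n = 6) in KO, a log2 difference of -0.51 ± 0.23 (SE) (limma, p = 0.042, adjusted p = 0.9996, and exact permutation test, p = 0.063). Stat5b, a transcription factor that the interleukin-7 receptor activates, was 173 ± 31.0 (SD, n = 6) in WT and 220 ± 38.2 (SD, n = 6) in KO, a log2 difference of 0.34 ± 0.15 (SE) (limma, p = 0.040, adjusted p = 0.9996, and exact permutation test, p = 0.043). Both overlapped between genotypes, and they differed in opposite directions.

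Of 7 tested genes that cut and join V(D)J segments, 2 were higher and 5 lower. Dclre1c, which encodes the Artemis nuclease that opens hairpin ends, was 17.3 ± 5.11 (SD, n = 6) in WT and 28.1 ± 8.19 (SD, n = 6) in KO, a log2 difference of 0.67 ± 0.24 (SE) (limma, p = 0.012, adjusted p = 0.9996, and exact permutation test, p = 0.022). Hmgb1, a DNA-bending cofactor of RAG with the highest mean signal of the list, had a log2 difference of -0.10 (limma, p = 0.610, adjusted p = 0.9996, and exact permutation test, p = 0.619).

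In the Notch pathway 7 of 17 tested genes were higher and 10 lower, with none at an unadjusted p under 0.05. Numb, an inhibitor of Notch, had the smallest p, with 18.2 ± 13.7 (SD, n = 6) in WT and 9.26 ± 3.52 (SD, n = 6) in KO (log2 difference -0.75; limma, p = 0.068, adjusted p = 0.9996, and exact permutation test, p = 0.091). Notch2, with the highest mean signal of the list, was 259 ± 32.1 (SD, n = 6) in WT and 237 ± 25.3 (SD, n = 6) in KO (log2 difference -0.13; limma, p = 0.325, adjusted p = 0.9996, and exact permutation test, p = 0.203). The Notch target Hes1 did not exceed 0.577 in any library, and Dtx1 did not exceed 1.88, but Nrarp of the same list lay between 1.15 and 8.03. All 3 were below the filter.

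The E proteins beside Tcf3 had log2 differences of -0.11 for Tcf4 and -0.03 for Tcf12 (exact permutation tests, p = 0.617 and 0.771; limma, adjusted p = 0.9996). Their inhibitors Id1, Id2 and Id3 were below the filter. Among 12 tested Ikaros relatives and subunits of the NuRD complex, 5 were higher and 7 lower, with none at an unadjusted p under 0.05. Ikzf2, which encodes Helios, had a log2 difference of 0.32 (limma, p = 0.199, adjusted p = 0.9996, and exact permutation test, p = 0.288) and Rbbp4, with the highest mean signal, one of -0.23 (limma, p = 0.312, adjusted p = 0.9996, and exact permutation test, p = 0.355). Of 8 other lymphoid transcription factors tested, 5 were higher and 3 lower and none had an unadjusted p under 0.05. Irf8 had a log2 difference of 0.24 (limma, p = 0.286, adjusted p = 0.9996, and exact permutation test, p = 0.314), and Myb, with the highest mean signal, one of 0.08 (limma, p = 0.593, adjusted p = 0.9996, and exact permutation test, p = 0.524).

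Of 6 tested other genes of lymphoid-primed and common lymphoid progenitors, 3 were higher and 3 lower. Lsp1, which encodes an actin-binding protein of leukocytes, was 71.5 ± 20.3 (SD, n = 6) in WT and 49.8 ± 16.9 (SD, n = 6) in KO, a log2 difference of -0.53 ± 0.23 (SE) (limma, p = 0.037, adjusted p = 0.9996, and exact permutation test, p = 0.069). Ly6d, a marker of B cell bias among common lymphoid progenitors, was listed at 0 in all 12 libraries. No listed paralog of a member passed the filter, Bcl11b and Notch3 among them.

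**Figure D5:**
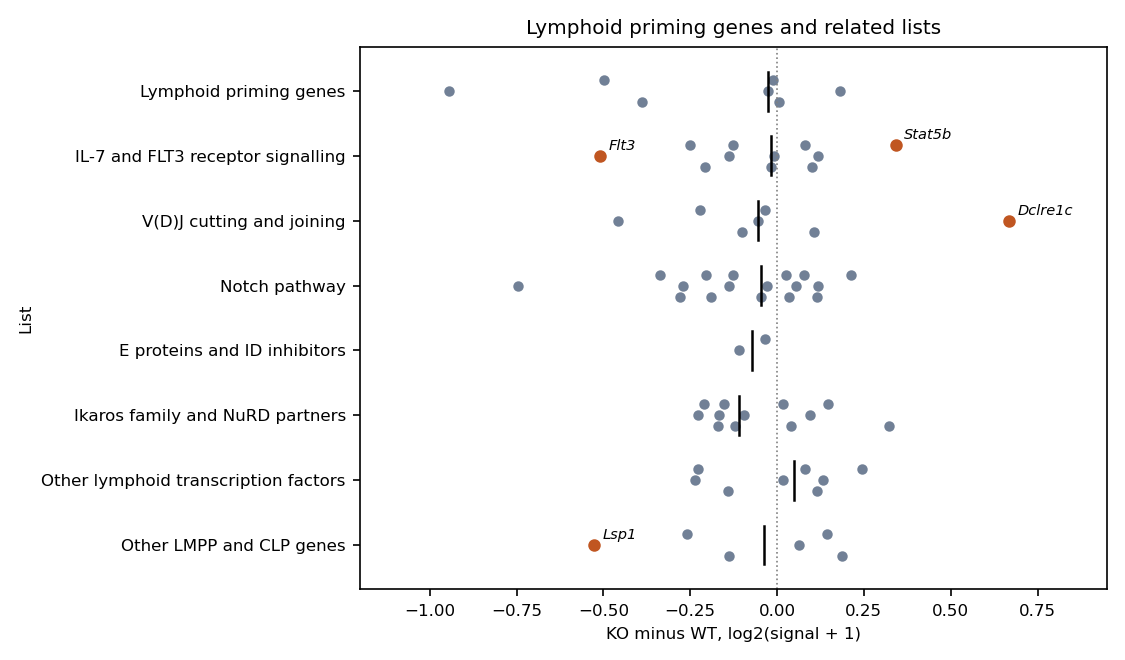
KO minus WT difference of mean log2(signal + 1) (x axis) of every tested gene in each list (y axis), with a vertical bar at the median of the list and orange points with names for genes with an unadjusted limma p under 0.05. None of the 7 lymphoid priming genes is orange, and 4 of the 63 listed partners are.

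Markers of mature lymphoid cells are given as a background for the members. The summed signal of 10 B cell markers was 15.3 to 24.2 in WT and 11.1 to 20.6 in KO, and of these Cd79b alone passed the filter (log2 difference -0.21; limma, p = 0.442, adjusted p = 0.9996, and exact permutation test, p = 0.400). Of 12 T cell markers none passed the filter, and their sum was 21.8 to 51.7 in WT and 19.6 to 44.2 in KO. The 6 markers of NK cells summed to 30.7 to 57.3 in WT and 29.5 to 81.1 in KO, with Nkg7 alone above the filter.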

How the data were processed

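RNA-seq of LSK cells from 6 WT and 6 Fancg KO mice was analysed, and the other experiments of the study were not used here. The labels name kallisto. The methods describe Kallisto with a human genome and Sleuth, and a mouse build, an annotation and a setting for strand are not given in the sources used here. The authors deposited 1 signal per gene and library, whose name and values show an estimated count scaled by a size factor of the library. Columns were matched to libraries by title, and 0 columns were left unused. For approximate reads, the most frequent value of each library, leaving out values near 0, was taken as the signal of 1 read. Since 10.2% to 11.2% of values were whole multiples of it (tolerance 0.001 reads), no test made for counts was run.

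Values were used as deposited. Genes whose signal averaged 10 or more were tested on log2(signal + 1) with limma 3.58.1 (moderated by empirical Bayes with a trend, two-sided, and adjusted by Benjamini-Hochberg over 8887 genes) in R 4.3.3, without covariates. Single genes were also tested with two-sided exact permutation tests (scipy 1.17.1), and relations with permutation tests of Pearson r and Spearman rho. The code was tested on simulated data. Positions are from GENCODE annotation of GRCm38, in which 35929 of the 35999 gene names were found. Counting intervals and limits cover counting error only, and p-values measure the spread between mice.

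The 10 members and the gene lists were chosen with earlier results of these data known. The genes named were all members, Fancg, Kit, Ly6a and Cd34, from each list the gene with the smallest p, any other with an unadjusted p under 0.05 and the one with the highest mean, and the nearest profile of each tested member. Other genes were named after their values were seen, and some results under this rule are not reported here. Alternatives were pseudocounts of 0.5 and 5, no filter and a filter of 50, quantile, median of ratios and Lars2-free scaling, limma without trend, the replicate block, leaving out each library or the pair with little Y-linked signal, and the median transcript length. The fits by depth group were added after the data were seen. The table was searched for members by gene name only, so isoforms were not separated.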

Additional observations from a re-analysis of the deposited data

Results flagged for a closer look

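Ccr9 in KO replicate 2 stood apart from the other libraries of its genotype, with a signal of 11.9 against 3.93 to 6.77. Its gap to the nearest library was 0.646 of the range of the group, above the 95% critical value of the Dixon test for 6 samples. This was 1 of 20 groups examined (10 genes in WT and KO), and chance marks about 1 group in 20. Ccr9 lies below the expression filter, and with each library left out in turn its log2 difference ran from -0.39 to 0.19.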

How the results depend on the processing

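The log2 differences of Il7r, Dntt, Satb1 and Notch1 were below 0 under every alternative that gave a value, and 0 members and 0 genes had an adjusted p under 0.05 under any. The number of genes with an unadjusted p under 0.05 was 326 of 8887 as reported and 124 of 8887 with scaling to the total without Lars2. It was 836 of 21536 without a filter and 91 of 3119 with a mean signal of at least 50 (which leaves out Il7r), where the number of genes tested also changed. Members with an unadjusted p under 0.05 numbered 0 as reported, 1 in replicates 2 to 5, 1 in replicates 6 and 7 (beside 3.51% of all genes tested), 1 with the depth group as a term, and 0 to 2 with 1 library left out (beside 3.09% to 4.31%). With the replicate number as a block they numbered 3 (Il7r, Dntt and Satb1; limma, adjusted p = 0.889 for each), among 476 or 5.36% of all genes tested. No other member came under 0.05 with the block, although the SE fell from 0.60 to 0.19 for Ebf1 and from 0.20 to 0.10 for Bcl11a. Same-numbered libraries had correlations from 0.09 to 0.36 (mean 0.20, against -0.04 for different numbers), above 0.1 in 4 of the 6 numbers. The numbers were not taken to pair the samples, since the labels name nothing that a number shares and 2 numbers lay below 0.1, although 9 of 12 libraries correlated best with their own number, a hint from the data. Leaving out 1 library gave -1.39 to -0.67 for Il7r, -0.76 to -0.25 for Dntt and -0.55 to -0.23 for Satb1. Values near 0 turned sign. Part of this is a shift of all genes, since scaling without Lars2 moved the median of all genes tested from 0.0031 to 0.057 and median of ratios scaling moved it to -0.0071, about as far as it moved these members. Ikzf1 was -0.013 with quantile normalization, -0.0045 with median of ratios scaling, -0.063 in replicates 6 and 7 and -0.046 to 0.057 with 1 library left out. Tcf3 was 0.043 with scaling without Lars2, 0.062 without WT replicate 3 and KO replicate 7, 0.012 in replicates 6 and 7 and -0.15 to 0.066 with 1 library left out. Bcl11a was 0.030 with scaling without Lars2, 0.045 without those libraries and -0.18 to 0.097 with 1 library left out. Ccr9 was 0.030, 0.22 and 0.14 with scaling without Lars2, without those libraries and in replicates 6 and 7 and -0.39 to 0.19 with 1 library left out. Values farther from 0 also turned sign. Rag1, at -0.40 as reported, was 0.013 without those libraries and 0.26 in replicates 2 to 5. Ebf1, at 0.18 as reported, ran from -0.20 to 0.48 with 1 library left out. Related pairs of members with an adjusted p under 0.05 numbered 8 over all libraries, 2 with scaling without Lars2 and 0 in replicates 2 to 5, where fewer libraries entered. The cause of the other changes was not tested. Il7r, Rag1, Notch1 and Ccr9 rest on few reads per library and are limited by depth.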

Other observations

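Among the marker lists, Itga2b, an integrin gene of megakaryocytes and early progenitors, was 14.8 ± 2.99 (SD, n = 6) in WT and 25.8 ± 9.70 (SD, n = 6) in KO (log2 difference 0.72; limma, p = 0.0060, adjusted p = 0.9996, and exact permutation test, p = 0.0043). Bst2, which plasmacytoid dendritic cells express, was 7.68 ± 1.74 (SD, n = 6) in WT and 15.9 ± 10.05 (SD, n = 6) in KO (log2 difference 0.82; limma, p = 0.024, adjusted p = 0.9996, and exact permutation test, p = 0.019), with 35.5 in KO replicate 4. Both were chosen after their values were seen. Of the 6 listed markers of plasmacytoid dendritic cells, Bst2 alone passed the filter. The others had log2 differences of 0.29 (Klk1), 0.15 (Siglech), -0.04 (Spib), -0.32 (Cox6a2) and -0.38 (Pld4).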
